A study of Mus musculus with 18 samples.

Results

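Nav1, Nav2 and Nav3 are the 3 neuron navigator genes of the mouse, and the data are the CTCF binding intervals that lie on them in embryonic stem cells. An interval counted for a gene when any of its summits lay inside the gene or within 10 kb of it on the mm10 build, and peak rows with the same interval were joined. By this rule the genes held 170 of the 192685 intervals in the 3 peak lists, 50 in SKO, 53 in TKO and 67 in WT. Joined across lists where they overlap, these are 73 regions, 39 at Nav2, 15 at Nav1 and 19 at Nav3. The genes were chosen by measured values of these same lists, Nav2 for its high number of WT intervals with no knockout interval over them. The missing and extra intervals below are therefore a description without a test.

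The study profiled CTCF by chromatin immunoprecipitation and sequencing (ChIP-seq), with input controls, in 3 genotypes of mouse embryonic stem cells. SKO is a sextuple knockout of Dnmt1, Dnmt3a, Dnmt3b, Tet1, Tet2 and Tet3. TKO is a triple knockout of Tet1, Tet2 and Tet3, and WT carries none of these deletions. Each genotype has 3 ChIP and 3 input samples, 18 in all, and the authors called 1 peak list per genotype on the 3 replicates pooled. There are therefore no replicate values behind an interval, and the intervals printed with shares are 95% Wilson intervals that cover counting error only. All cells were grown with LIF and serum replacement, typically on irradiated mouse embryonic fibroblasts; whether feeder chromatin reached the lysates was not tested. The labels do not say how the alleles were made, whether a knockout line is 1 clone, or whether replicates were separate cultures. Effects of the missing enzymes and other differences between the lines cannot be told apart, and CTCF intervals hold no marker expression with which to check the cell type.

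CTCF is a zinc finger protein that binds a long DNA motif and, with cohesin, sets the ends of chromatin loops. Methylation of a CpG within its motif is known to weaken binding at some sites. DNMT enzymes place this methylation and TET enzymes oxidise it. Neuron navigators are large cytoskeletal proteins related to UNC-53, which guides migrating cells and axons in the worm Caenorhabditis elegans. They bind microtubules and actin regulators in growing neurites and are unrelated to the voltage-gated sodium channels that share the abbreviation. Nav1 follows microtubule plus ends, and Nav2 was found as a gene induced by retinoic acid.

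Nav2 spans chromosome 7, 48959063 to 49610090 (651 kb, gene 78286). Nav1 spans chromosome 1, 135434580 to 135688350 (254 kb, gene 215690), and Nav3 spans chromosome 10, 109681260 to 110455722 (774 kb, gene 260315). RefSeq lists 33 transcripts for Nav2, 19 for Nav1 and 11 for Nav3. The annotation used gives gene boundaries without exons, so exonic and intronic intervals are not separated. Start sites came from the RefSeq promoter sequences of GRCm38.p6, the assembly behind mm10, which matched 2 of the 3 genes. Nav2, on the plus strand, has an upstream start at 48959073 and an internal start at 49246189. Nav1, on the minus strand, has a start at 135585355, which is internal because the gene begins at its upper end, 135688350. No promoter sequence was matched for that upper end.

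These promoters are shown because they are the landmarks for the positions given below and show the CpGs there. Each run covers 250 bases before to 50 after the start, 5′ to 3′ on the gene's strand, with every CpG in capitals. The Nav2 upstream promoter is chr7:48958823-48959122 (plus strand), the Nav2 internal promoter chr7:49245939-49246238 (plus strand) and the Nav1 promoter chr1:135585306-135585605 (minus strand).
Nav2 upstream: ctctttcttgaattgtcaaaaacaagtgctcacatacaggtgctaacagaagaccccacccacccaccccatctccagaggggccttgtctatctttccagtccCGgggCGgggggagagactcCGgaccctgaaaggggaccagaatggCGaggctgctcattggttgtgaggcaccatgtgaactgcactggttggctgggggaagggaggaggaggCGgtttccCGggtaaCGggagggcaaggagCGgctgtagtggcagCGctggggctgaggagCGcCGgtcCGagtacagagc
Nav2 internal: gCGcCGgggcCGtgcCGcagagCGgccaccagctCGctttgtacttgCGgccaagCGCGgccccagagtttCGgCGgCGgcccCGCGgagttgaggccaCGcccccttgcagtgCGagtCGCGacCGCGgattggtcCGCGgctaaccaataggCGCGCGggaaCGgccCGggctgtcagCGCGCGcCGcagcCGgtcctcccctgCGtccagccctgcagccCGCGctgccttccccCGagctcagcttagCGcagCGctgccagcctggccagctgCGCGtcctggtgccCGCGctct
Nav1: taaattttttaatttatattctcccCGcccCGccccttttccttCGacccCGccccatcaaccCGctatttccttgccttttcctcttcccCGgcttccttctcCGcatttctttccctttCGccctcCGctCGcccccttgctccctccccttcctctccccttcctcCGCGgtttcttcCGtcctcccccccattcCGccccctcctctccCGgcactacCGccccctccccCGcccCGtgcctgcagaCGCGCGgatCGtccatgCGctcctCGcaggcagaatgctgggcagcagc
The Nav2 internal promoter held 42 CpGs, the Nav2 upstream promoter 12 and the Nav1 promoter 24, against a median of 7 (quartiles 3 and 20) over 32851 RefSeq promoters. No CTCF interval of any list lay on these 3 promoters. A long form of the CTCF core motif, searched first and on both strands, was in none of these windows and in 8.61% of all promoters.

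The counted intervals stood at a distance from the Nav2 upstream start. The nearest of them was 53.2 kb downstream of it, in the WT list alone. None was counted upstream of that start, and intervals more than 10 kb upstream of the gene were not looked at here. Around the internal start, the nearest interval lay 4.01 kb downstream and was in all 3 lists, while the nearest on the upstream side lay 50.8 kb away. At Nav1 the nearest interval was 40.5 kb downstream of the internal start and the nearest upstream one 48.7 kb away, both in all 3 lists. Close to the upper end of Nav1, where the gene begins on the minus strand, WT alone had intervals at 135683210 to 135683472 and 135697470 to 135697817.

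Nav2 had 22 intervals in SKO, 27 in TKO and 36 in WT. Of its 39 regions 21 were in all 3 lists, 11 in WT alone, 3 in TKO alone, 3 in TKO and WT, and 1 in SKO and WT. Distances along Nav2 are from the first annotated base of Nav2 to the summit of highest −log10 q. A fold is the authors' fold enrichment of ChIP over local background at the summit. Folds of different lists are set side by side and not compared, because each list has its own depth.

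**Figure D1:**
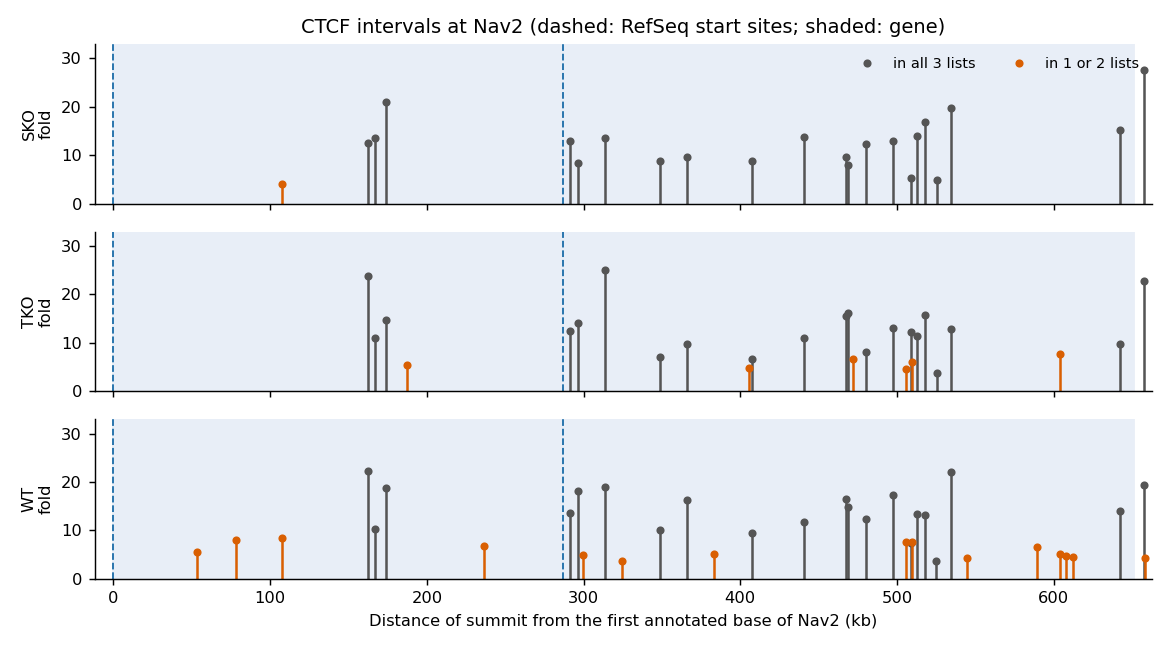
Fold enrichment (y) of each CTCF interval at Nav2 against the distance of its summit from the first annotated base in kb (x), in SKO, TKO and WT from top to bottom, with dashed lines at the 2 RefSeq start sites and the gene shaded. Black stems are the 21 regions in all 3 lists and orange stems those in 1 or 2 lists. Orange stems are most frequent in WT and stay low, at folds of 8.35 or less there.

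Between the upstream and the internal start lay 8 regions. The first interval, at 53.2 kb, was in WT alone (fold 5.44), as was the next at 78.4 kb (fold 7.985). At 107 kb, inside the long non-coding RNA gene Gm32849, SKO had fold 4.004 and WT 8.35, with none in TKO. So the first 162 kb of the gene held intervals of low fold that were absent from TKO, and 2 of these 3 were absent from SKO as well.

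A group of 3 strong intervals followed, all in each list. At 162 kb (chromosome 7, 49121227 to 49121734 in WT) the fold was 12.6 in SKO, 23.7 in TKO and 22.3 in WT. At 167 kb it was 13.5 in SKO, 11.1 in TKO and 10.3 in WT, and at 174 kb 21.0 in SKO, 14.8 in TKO and 18.8 in WT. The last of these and its neighbour at 167 kb also lie inside the long non-coding RNA gene 9130015G15Rik. Within the same non-coding gene, at 188 kb, TKO alone had an interval (fold 5.32). Past that gene's end, at 236 kb, WT alone had one (fold 6.81).

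Past the internal start, 10 regions lay between 291 and 407 kb. The pair nearest to that start was present throughout. At 291 kb (49249965 to 49250418 in WT) the fold was 12.95 in SKO, 12.4 in TKO and 13.7 in WT. At 296 kb it was 8.37 in SKO, 14.2 in TKO and 18.1 in WT. The interval at 314 kb was also in every list, at 13.5 in SKO, 25.04 in TKO and 18.9 in WT, the highest TKO fold of the gene.

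Among these strong intervals stood weak ones found in WT alone, at 300 kb (fold 4.83), 325 kb (3.63) and 383 kb (5.03). The one at 383 kb lies inside the long non-coding RNA gene Gm51448. The intervals at 349 kb (8.87 in SKO, 7.04 in TKO, 10.2 in WT) and 366 kb (9.56 in SKO, 9.80 in TKO, 16.25 in WT) were in each list. At 405 kb TKO had an interval of its own (fold 4.845), 1.99 kb from a region that all lists shared, with folds of 8.87 in SKO, 6.58 in TKO and 9.47 in WT. Strong and weak intervals thus alternated here, and the weak ones made up the missing and extra ones.

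The stretch from 440 to 534 kb was the densest, with 13 regions, 10 of them in all 3 lists. None of its 12 WT intervals was missing from TKO and 2 were missing from SKO. At 440 kb the fold was 13.7 in SKO, 11.02 in TKO and 11.6 in WT. A close pair followed at 467 kb (9.70 in SKO, 15.5 in TKO, 16.5 in WT) and 469 kb (8.06 in SKO, 16.1 in TKO, 14.7 in WT). Next to this pair, at 472 kb, lay the strongest TKO interval of Nav2 without a WT partner (49430782 to 49431034, fold 6.71).

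At 480 kb the fold was 12.2 in SKO, 8.16 in TKO and 12.4 in WT, and at 497 kb 13.0 in SKO, 13.0 in TKO and 17.3 in WT. The intervals missing from SKO stood at 506 kb (4.61 in TKO, 7.71 in WT) and 510 kb (6.03 in TKO, 7.71 in WT). Between them, 0.604 kb from the second, an interval at 509 kb was in all lists, with fold 5.31 in SKO, 12.2 in TKO and 7.31 in WT. Intervals 0.604 kb apart thus differed in whether SKO had them.

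The remaining intervals of the dense stretch were shared. At 512.5 kb the fold was 13.9 in SKO, 11.5 in TKO and 13.45 in WT, and at 518 kb 16.9 in SKO, 15.65 in TKO and 13.2 in WT. At 534 kb (49493204 to 49493712 in WT) it was 19.7 in SKO, 12.8 in TKO and 22.1 in WT. Between the last 2, at 525 kb, stood the weakest region that all lists held, with folds of 4.88 in SKO, 3.81 in TKO and 3.63 in WT. A weak WT interval of Nav2 was thus not always missing from the knockouts.

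The end of the gene with its flank, from 544 to 658 kb, held 8 regions, all in WT. Of these 6 were missing from SKO and 5 from TKO. The 5 missing from both had WT folds of 4.355 at 544 kb, 6.555 at 589.5 kb, 4.72 at 608 kb, 4.47 at 612 kb and 4.23 at 658 kb. The one at 658 kb lies past the gene's end. The interval at 604 kb, inside the long non-coding RNA gene Gm32694, was in TKO (fold 7.67) and WT (fold 5.03) and absent from SKO. The strong intervals at 642 kb (15.25 in SKO, 9.72 in TKO, 13.98 in WT) and 657 kb (27.7 in SKO, 22.9 in TKO, 19.4 in WT) were in each list. The interval at 657 kb (49616158 to 49616814 in WT) lies past the gene's end, its SKO summit by 6.34 kb. It had the highest SKO fold among the counted intervals of the 3 genes.

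By stretch, the WT intervals missing from SKO numbered 3 of 7 upstream of the internal start, 3 of 9 from there to 407 kb, 2 of 12 in the dense stretch and 6 of 8 at the end. Those missing from TKO numbered 4 of 7, 3 of 9, 0 of 12 and 5 of 8. The median WT −log10 q, the authors' measure of significance, was 15.1, 26.1, 52.5 and 6.99 in the same order. The largest share was missing in the last stretch, where the median WT −log10 q was lowest. The bounds of these stretches were set after the map was seen.

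Set against WT, SKO lacked 14 of 36 Nav2 intervals (38.9%, 24.8% to 55.1%), where the share over the whole WT list was 21.9%. TKO lacked 12 of 36 (33.3%, 20.2% to 49.7%), where the whole list gave 19%. The 14 missing from SKO had WT −log10 q values from 2.73 to 14.5, and the 22 present in SKO had values from 3.38 to 99.6 with a median of 60.9. The 12 missing from TKO ran from 2.73 to 15.1, and the 24 present in TKO had a median of 56.4. The missing and the present intervals overlap in strength, and the missing ones are all in the lower part of the range.

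**Figure D2:**
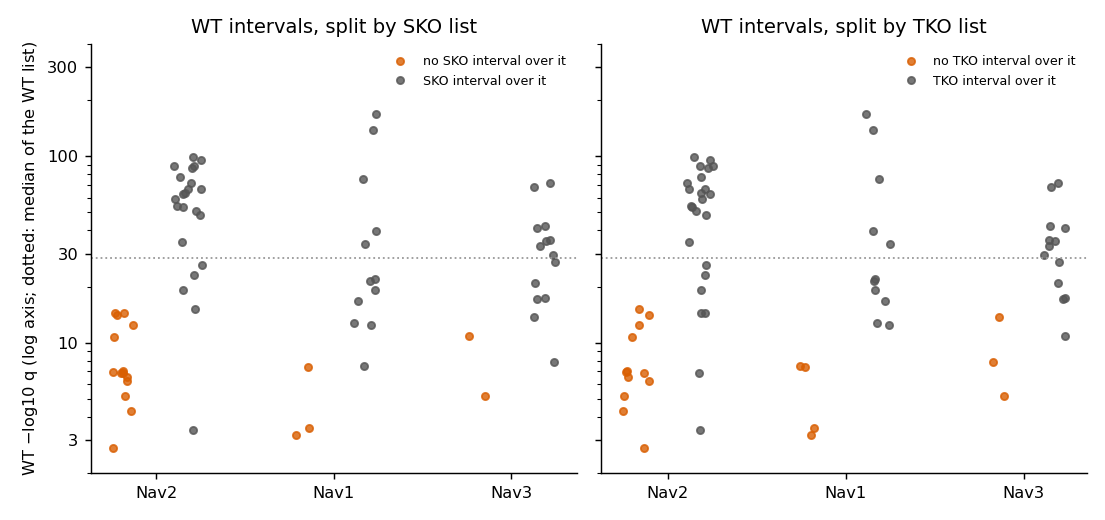
WT −log10 q on a log axis (y) of each WT interval at Nav2, Nav1 and Nav3 (x), split by whether SKO (left) or TKO (right) has an interval over it, in orange where it has none and in grey where it has one. The dotted line is the median of the whole WT list, and every missing interval of the 3 genes lies under it.

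Weak WT intervals were often missing in the whole lists too. When the WT list was divided into 10 equal bins by −log10 q, Nav2 had 12 intervals in the 3 weakest bins, of which 11 were missing from SKO (91.7%, 64.6% to 98.5%) and 10 from TKO (83.3%, 55.2% to 95.3%). Over the whole WT list 60.8% of the intervals in those bins were missing from SKO and 54% from TKO. In the 4 middle bins SKO lacked 3 of 12 Nav2 intervals and TKO 2 of 12, where the whole list gave 9.13% for SKO and 6.97% for TKO. In the 3 strongest bins both knockouts held all 12. With each Nav2 interval counted at the missing share of its own bin, 9.13 would be missing from SKO and 7.98 from TKO. The observed counts are higher, and no test is attached because Nav2 was picked for them.

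Intervals absent from WT were few in number at Nav2, with a TKO share above that of the whole list. SKO had 0 of 22 such intervals (upper bound 14.9%, whole list 6.59%). TKO had 3 of 27 (11.1%, 3.85% to 28.1%, whole list 7.49%), at −log10 q values of 6.69, 5.61 and 11.7. At the shares of the strength bins of each knockout list, 0.89 would be extra in SKO and 1.91 in TKO. In SKO against TKO, 6 of 27 TKO intervals of Nav2 had no SKO interval (22.2%, 10.6% to 40.8%, whole list 14.5%), and 1 of 22 SKO intervals had no TKO interval (4.55%, 0.807% to 21.8%, whole list 10.4%). The Nav2 interval without a TKO partner is the one at 107 kb. At the shares of the strength bins 3.48 TKO and 1.33 SKO intervals of Nav2 would lack a partner. Of TKO intervals 0 of 11 at Nav1 (upper bound 25.9%) and 2 of 15 at Nav3 (13.3%, 3.74% to 37.9%) had no SKO interval. Of SKO intervals 1 of 12 at Nav1 (8.33%, 1.49% to 35.4%) and 3 of 16 at Nav3 (18.8%, 6.59% to 43%) had no TKO interval.

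The depth behind the intervals was read from the deposited values, from which the number of ChIP fragments over a summit, the pileup, can be solved. Among rows with −log10 q under 5 a whole pileup was found for 99.77% in SKO, 99.86% in TKO and 99.83% in WT. The genome-wide background was 1.368 fragments in SKO, 1.818 in TKO and 1.755 in WT. The lowest pileup listed at that background was 7 in SKO, 8 in TKO and 7 in WT. Nav2 intervals missing from SKO had WT pileups of 9 to 23 fragments (median 17.5), which scaled by the ratio of backgrounds (0.779) would be 7.02 to 17.9. Those missing from TKO had 9 to 22 (median 17.5), scaled by 1.04 to 9.32 to 22.8. Each scaled value is above the lowest pileup listed in the knockout, while local background, which raises the bar at a given place, was not available where no interval was called.

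In SKO 19 of 22 shared Nav2 intervals (86.4%) had a lower pileup than the depth-scaled WT pileup, against 59.4% of all shared intervals and 63.2% of those on chromosome 7. The 22 intervals shared by SKO and WT had pileups of 11 to 83 fragments in SKO (median 40) and 12 to 114 in WT (median 66.5). The ratio of the SKO pileup to the scaled WT pileup had a median of 0.791 (quartiles 0.732 and 0.956), against 0.942 (0.781 and 1.12) over 55316 shared intervals of the whole lists. It was under 0.9 for 16 of 22 (72.7%), against 43.2% of all. On the whole of chromosome 7 the median was 0.925, and the medians of 20 whole chromosomes ran from 0.807 to 1.06. Among intervals of the 3 strongest WT bins it was 0.802 over 12 at Nav2, against 0.932 over all.

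In TKO 21 of 24 shared Nav2 intervals (87.5%) had a lower pileup than the depth-scaled WT pileup, against 73.6% of all shared intervals and 71.7% of those on chromosome 7. The 24 shared intervals had pileups of 11 to 95 in TKO (median 55) and 12 to 114 in WT (median 65.5). The median ratio was 0.852 (quartiles 0.671 and 0.943), against 0.863 (0.737 and 1.01) over 57370 shared intervals, and it was under 0.9 for 16 of 24 (66.7%), against 57.3% of all. Among intervals of the 3 strongest WT bins the TKO median was 0.865 over 12 at Nav2, against 0.838 over all. There 91.7% at Nav2 were lower than scaled WT, against 85.9% of all, and 58.3% were under 0.9, against 66.9%. In TKO the ratios of Nav2 were thus near those of the whole lists at like strength. At Nav1 the median ratio was 0.992 in SKO and 0.9 in TKO, and at Nav3 0.998 in SKO and 0.916 in TKO. These ratios rest on pooled libraries and on the genome-wide background as a measure of depth, and have no replicate error. They come from the lists by which Nav2 was picked and are likewise a description without a test.

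**Figure D3:**
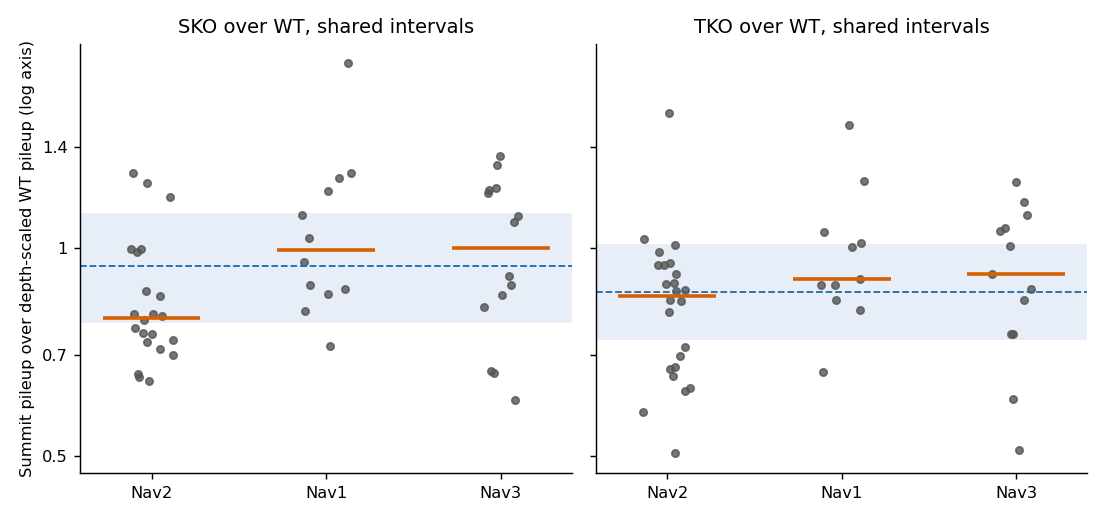
Ratio of the summit pileup in SKO (left) or TKO (right) to the WT pileup scaled by genome-wide background, on a log axis (y), for each shared interval of Nav2, Nav1 and Nav3 (x), with the median in orange. The dashed line and band are the median and quartiles of all shared intervals. In SKO the Nav2 median of 0.791 lies close to the lower edge of the band, at 0.781.

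Nav1, the shortest of the 3, had 12 intervals in SKO, 11 in TKO and 15 in WT. Of its 15 regions 11 were in all 3 lists, 3 in WT alone and 1 in SKO and WT. SKO lacked 3 of 15 WT intervals (20%, 7.05% to 45.2%) and TKO 4 of 15 (26.7%, 10.9% to 52%). With each interval counted at the share of its strength bin, 4.37 would be missing from SKO and 3.79 from TKO. Neither knockout had an interval at Nav1 that WT lacked, 0 of 12 in SKO (upper bound 24.2%, whole list 6.59%) and 0 of 11 in TKO (upper bound 25.9%, whole list 7.49%). At the shares of the strength bins 0.588 would be extra in SKO and 0.219 in TKO, so a count of 0 does not set Nav1 apart.

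The 4 Nav1 intervals that differed were all weak. WT alone had those at 135478770 to 135479141 (fold 3.09), 135683210 to 135683472 (fold 3.98) and 135697470 to 135697817 (fold 4.79). The fourth, at 135488376 to 135488578 in WT (fold 5.36), had a partner in SKO (fold 3.71) and none in TKO. Nav1 also held the interval with the highest TKO and WT folds among the counted intervals of the 3 genes, at 135670411 to 135670856 in WT. Its fold was 11.2 in SKO, 30.1 in TKO and 23.6 in WT, with pileups of 111 fragments in SKO, 181 in TKO and 166 in WT. A neighbour 0.953 kb away had 21.4 in SKO, 14.5 in TKO and 19.8 in WT. The local background behind the SKO folds was 8.987 fragments at the first and 2.135 at the neighbour.

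Another strong interval of Nav1, at 135540283 to 135540751 in WT, had folds of 15.5 in SKO, 27.3 in TKO and 19.6 in WT and pileups of 102 in SKO, 138 in TKO and 148 in WT. From its neighbour at 135544904 to the next summit at 135634100 lay 89.2 kb without an interval, a gap that contains the internal start. The intervals at 17.9, 26.7, 37.8 and 41.1 kb from the lower end were in each list with folds of 5.93 to 11.4 in SKO, 6.65 to 12.8 in TKO and 6.18 to 8.245 in WT.

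**Figure D4:**
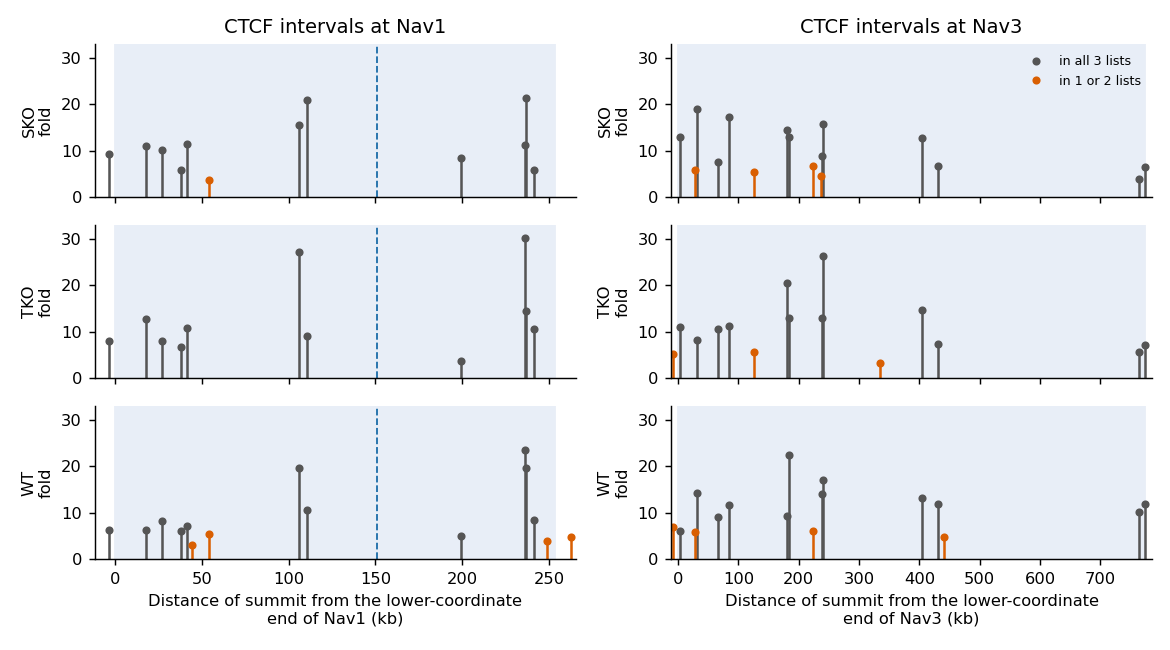
Fold enrichment (y) of CTCF intervals at Nav1 (left) and Nav3 (right) against the distance of the summit from the lower-coordinate end of the gene in kb (x), in SKO, TKO and WT from top to bottom. Black stems are regions in all 3 lists, 11 at Nav1 and 12 at Nav3, orange stems those in 1 or 2 lists, and the dashed line is the internal RefSeq start of Nav1. The upper part of Nav3 has a gap of 324 kb without an interval.

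The lowest Nav1 region lies outside the gene, on the promoter of its neighbour Ipo9, which encodes a nuclear import receptor. It was present in each list, at 135430539 to 135430811 in SKO (fold 9.26), 135430500 to 135430801 in TKO (fold 8.10) and 135430527 to 135430758 in WT (fold 6.37). The promoter, chr1:135430450-135430749 on the minus strand from RefSeq (GRCm38.p6), is printed because this interval lies on it in all 3 lists.
Ipo9: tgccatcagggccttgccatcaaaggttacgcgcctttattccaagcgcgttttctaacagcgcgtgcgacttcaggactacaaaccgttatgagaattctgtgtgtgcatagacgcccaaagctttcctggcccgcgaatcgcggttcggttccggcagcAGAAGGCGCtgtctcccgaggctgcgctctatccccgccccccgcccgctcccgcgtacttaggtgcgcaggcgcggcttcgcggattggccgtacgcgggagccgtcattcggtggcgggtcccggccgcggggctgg
The capitals mark the 1 match to AGNNGGCGC, the last part of a CTCF core motif, a form chosen after the sequence was seen. It was found on the printed strand, both strands were searched, and 7.23% of all RefSeq promoters hold it. The match, at 135430580 to 135430588, lies 67 bp from the SKO summit, 43 bp from the TKO summit and 51 bp from the WT summit. The short form was in none of the 3 navigator promoters, the long form was not in this window, and the promoter held 37 CpGs.

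Nav3, the longest of the 3, had 16 intervals in SKO, 15 in TKO and 16 in WT, close to the same number in each list. Of its 19 regions 12 were in all 3 lists, and each of the other 7 was weak in the lists that held it, at folds of 3.29 to 6.90. SKO lacked 2 of 16 WT intervals (12.5%, 3.5% to 36%) and TKO 3 of 16 (18.8%, 6.59% to 43%), where the shares of the strength bins would give 2.84 for SKO and 2.40 for TKO. Each knockout had 2 intervals that WT lacked. They made up 2 of 16 in SKO (12.5%, 3.5% to 36%), against 6.59% of the whole SKO list. In TKO they made up 2 of 15 (13.3%, 3.74% to 37.9%), against 7.49% of the whole TKO list. At the shares of the strength bins 1.25 would be extra in SKO and 1.23 in TKO, so these counts do not set Nav3 apart. With a −log10 q of at least 5 required of the TKO intervals, the TKO share was 7.14%.

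One region of Nav3 was in both knockouts and not in WT. It lay at 109807323 to 109807579 in SKO (fold 5.49) and 109807274 to 109807533 in TKO (fold 5.68). No such region was found at Nav2 or Nav1. The share of this class over the whole lists was not computed, so 1 of 19 regions does not set Nav3 apart. SKO alone had an interval at 109918914 to 109919131 (fold 4.64), 0.683 kb from a shared one, and TKO alone had one at 110016019 to 110016396 (fold 3.29). WT alone had 110121917 to 110122136 (fold 4.72).

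Of the remaining Nav3 differences, the intervals at 109709058 to 109709370 in WT (fold 5.81) and 109904907 to 109905172 in WT (fold 6.04) had SKO partners of fold 5.91 and 6.76 and none in TKO. The interval at 109672305 to 109672548 in WT (fold 6.90) had a TKO partner of fold 5.32 and none in SKO. Among shared regions the pair at 109861465 and 109864893 (WT summits) gave 14.5 and 12.9 in SKO, 20.5 and 13.0 in TKO, and 9.30 and 22.5 in WT. Which member of the pair had the higher fold thus differed between lists, SKO and TKO against WT. The pileups were 52 and 42 fragments in SKO, 71 and 53 in TKO, and 55 and 61 in WT. The WT pileups were thus closer than the WT folds, and the local background behind these folds was 5.022 and 1.755 fragments.

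The Nav3 interval with the highest −log10 q in each of the 3 lists was at 109920776 to 109921148 in WT, with folds of 15.7 in SKO, 26.3 in TKO and 17.0 in WT. At the upper end of the gene 2 intervals were in each list. The one at 110445885 to 110446240 in WT had 3.80 in SKO, 5.74 in TKO and 10.2 in WT. The one at 110455964 to 110456295 in WT, with its SKO summit 0.384 kb past the gene's boundary, had 6.55 in SKO, 7.10 in TKO and 11.9 in WT. Between the first of these and the WT interval at 110122013 lay 324 kb without an interval in any list, the widest gap in the 3 genes.

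The genes differed in how densely they carried intervals. WT had 5.36 intervals per 100 kb at Nav2, 5.48 at Nav1 and 2.01 at Nav3, flanks included, where 990 protein-coding genes of 200 kb or more had a median of 2.09 (quartiles 1.23 and 3.44). Of those genes 68 were denser than Nav2, 58 denser than Nav1 and 521 denser than Nav3. The median distance between neighbouring regions was 10.6 kb at Nav2, 9.20 kb at Nav1 and 21.6 kb at Nav3. Between regions in all 3 lists it was 13.4 kb at Nav2, 9.95 kb at Nav1 and 28.4 kb at Nav3.

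Summits of shared intervals lay close together, but the overlap required of shared intervals limits how far apart they can lie. In regions of 2 lists the summits lay up to 66 bp apart, at Nav1. The summits of a region in all 3 lists lay within 51 bp of each other at Nav2 (median 19 bp), 39 bp at Nav1 (median 15) and 35 bp at Nav3 (median 20). The median distance from the SKO to the WT summit was 11 bp at Nav2, as over all shared intervals, and from the TKO to the WT summit 11.5 bp, against 10 bp over all. No interval of the 3 genes had more than 1 summit, which 2.63% of SKO, 2.83% of TKO and 2.72% of WT intervals had in the whole lists. Median widths at Nav2 were 426 bp in SKO, 391 bp in TKO and 338 bp in WT, against 374 bp in SKO, 363 bp in TKO and 364 bp in WT in the whole lists.

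Set among other genes, the rank of Nav2 for missing intervals depended on the set. Of 85 protein-coding genes with 20 or more WT intervals, 4 had a higher share missing from SKO and 2 a higher share missing from TKO. The medians of these genes were 19.1% for SKO and 13.6% for TKO. Genes that share intervals, such as the clustered protocadherins, were each counted, so the genes of this set are not all separate. Nav2's WT intervals were also weaker at the median (−log10 q 24.6) than the median gene of this set (32.3). Among the 736 genes with 10 or more WT intervals, 83 had a higher share than Nav2 missing from SKO and 67 from TKO. Among the 990 genes of 200 kb or more, 181 had a higher share missing from SKO and 161 from TKO. In the set of 736, the shares of Nav1 were exceeded by 343 genes for SKO and 170 for TKO, and those of Nav3 by 527 for SKO and 319 for TKO.

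The genes most like Nav2 in both shares, by the sum of the absolute differences over the 2 comparisons, were Asic2, Atrnl1, Cacna1c and Patj. Asic2, an acid-sensing ion channel gene, had 36.1% missing from SKO and 30.6% from TKO of 36 WT intervals, 5.56 percentage points from Nav2 in sum. Atrnl1, an attractin-like gene, had 43.5% missing from SKO and 30.4% from TKO of 23. Cacna1c, which encodes a calcium channel pore subunit, had 30% missing from SKO and 35% from TKO of 20. Patj, a cell polarity scaffold gene, had 30% missing from each of 20. Both comparisons share the WT list, so the 2 shares of a gene are not independent.

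**Figure D5:**
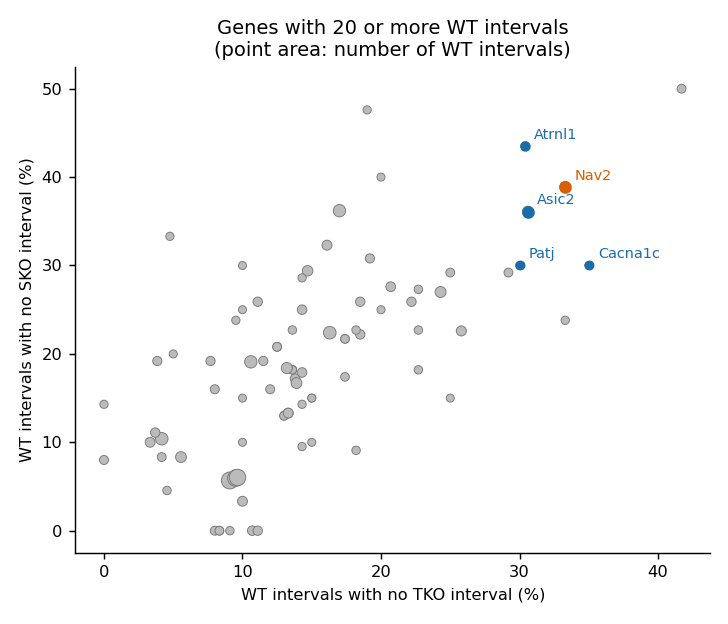
Share of WT intervals with no TKO interval in percent (x) against the share with no SKO interval in percent (y) for 85 protein-coding genes with 20 or more WT intervals, with point area for their number. Nav2 (orange, 33.3% and 38.9%) lies at the upper right with the 4 genes nearest to it in blue.

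Several neighbours of the navigators are themselves related genes, which was noticed after the positions were seen. E2f8 and Csrp3 lie 77 and 111 kb below Nav2, Csrp1 lies 31.7 kb above Nav1, and E2f7 and Csrp2 lie 290 and 464 kb above Nav3. E2f7 and E2f8 encode atypical E2F repressors of the cell cycle, and Csrp1, Csrp2 and Csrp3 encode LIM domain proteins. E2f8 had 1 interval in SKO, 2 in TKO and 1 in WT, with none missing from the knockouts. Csrp3 had 1 in SKO, 2 in TKO and 2 in WT, with 1 WT interval missing from each knockout. E2f7 had 4 in SKO, 4 in TKO and 6 in WT, with 2 missing from each.

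On the other sides, Dbx1, a homeobox gene of the spinal cord 21.4 kb above Nav2, had 0 intervals in every list, and the next gene, Htatip2, had 6 in every list with none missing. Csrp1 had 3 in SKO, 3 in TKO and 4 in WT, with 1 missing from each knockout. Csrp2 and Phlda3 had 1 in every list. Ipo9 had 5 in SKO, 4 in TKO and 3 in WT, with 2 SKO and 1 TKO intervals that WT lacked, and Shisa4 had 5 in SKO, 4 in TKO and 4 in WT. Syt1, a synaptic calcium sensor gene 670 kb below Nav3, had 8 in SKO, 8 in TKO and 9 in WT, with 2 WT intervals missing from SKO and 3 from TKO, and Gm5136 had 0. At the 4 neighbours of Nav2, 1 WT interval was missing from each knockout, but these genes hold few intervals and the difference from Nav2 was not tested.

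A comparison list of 15 genes for microtubule plus-end factors and navigator partners was found whole in the annotation. They held 125 intervals in SKO, 127 in TKO and 143 in WT. SKO lacked 31 WT intervals (21.7%, 15.7% to 29.1%, whole list 21.9%) spread over 12 genes, and TKO lacked 24 (16.8%, 11.5% to 23.8%, whole list 19%) over 10 genes. SKO had 12 intervals that WT lacked (9.60%, whole list 6.59%) and TKO 8 (6.30%, whole list 7.49%). The shares missing are near those of the whole lists.

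The 3 genes with most WT intervals missing, and 2 tied after them, are named. Macf1, a large linker of actin and microtubules, lacked 7 of 27 WT intervals in SKO and 5 of 27 in TKO. Kalrn lacked 5 of 28 in SKO and 4 in TKO, and Clip1, a plus-end tracking protein, lacked 4 of 10 in SKO and 3 in TKO and had 4 SKO and 2 TKO intervals that WT lacked. Trio, an exchange factor that binds Nav1, lacked 3 of 13 in each knockout. Ywhae, a 14-3-3 protein, lacked 3 of 4 in each, and its WT intervals were weak (median −log10 q 4.78). Mapre1, which encodes the plus-end protein EB1, had 0 intervals in every list.

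The window of 10 kb decided which flanking intervals were counted. The WT interval just inside it at Nav1 was 9.24 kb from the gene (fold 4.79) and the nearest outside was 11.2 kb away, with folds of 39.0 in SKO, 19.5 in TKO and 25.9 in WT. At Nav2 the nearest outside was 10.3 kb away, at 4.76 in SKO, 7.18 in TKO and 6.17 in WT, and the outermost inside was 7.30 kb away in WT (fold 4.23). At Nav3 the outermost inside was 8.83 kb away in WT (fold 6.90) and the nearest outside 16.2 kb away, at 17.4 in SKO, 13.3 in TKO and 24.2 in WT. In SKO and in WT this interval outside Nav1 had a higher fold than any counted Nav1 interval. By −log10 q that held in SKO (131 outside, at most 85.4 counted) and not in WT (111 outside, at most 168 counted).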

How the data were processed

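CTCF ChIP and input samples of SKO, TKO and WT embryonic stem cells entered 3 deposited peak lists, each called on 3 replicates pooled, per the labels. The submitters' processing notes name Bowtie2 2.3.4, SAMtools 1.9, MACS2 2.1.2, bedtools 2.25.0 and mm10. Commands, filters and read depth per sample: not given in the sources used here. Per deposited peak the authors' files give a fold enrichment (ratio of ChIP to local background at the summit), −log10 p and −log10 q, a score that is 10 times the −log10 q, and a summit offset; q was at most 0.05.

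Rows of equal interval were joined with Python 3.11.15 and pandas 2.3.3 into 59372 SKO, 62238 TKO and 71075 WT intervals, with the strongest summit for values. Overlap of 1 bp counted as shared. Pileup and background were solved from the deposited fold and −log10 p, accepted within a tolerance of 1e-04. Overlap and pileup steps were tested on simulated data. The stretches of Nav2 were set after its map, and the short motif after the Ipo9 promoter, had been seen. Replicates were pooled, so no test between genotypes was made. Alternatives varied the −log10 q minimum, the overlap and the window. The text names every interval of Nav2, those of Nav1 and Nav3 by class, the 4 genes nearest to Nav2 in both shares, the 2 nearest genes on either side, and the list genes with most missing intervals. The members and lists were chosen with earlier results of these data known. Signal tracks and read totals were not used here.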

Additional observations from a re-analysis of the deposited data

How the results depend on the processing

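The 15 shares of missing or extra intervals of Nav2, Nav1 and Nav3 were recomputed under 7 alternatives (105 values), and every one stayed within the 95% interval of the reported share. Those 95% intervals are wide and the alternatives recount mostly the same peaks, so this is a weak check. The settings were a −log10 q of at least 5 in the counted list or in both lists, overlap of at least 50% of both intervals, summits within 100 bp, the gene alone, 50 kb either side, and rows left unjoined. The Nav2 share missing from SKO ran from 35.9% to 39.4% and that missing from TKO from 30.3% to 33.3%, and Nav2 lay above both paralogues under all 7 settings in both comparisons. Nav2 was picked for its missing intervals in these same lists, so this order is not separate support. Nav1 ran from 7.69% to 26.7% for SKO and from 15.4% to 26.7% for TKO, and Nav3 from 7.14% to 12.5% for SKO and from 17.6% to 21.4% for TKO. The shares of knockout intervals that WT lacked ran from 0% to 4.76% in SKO and 10% to 12% in TKO at Nav2, 0% to 8.33% in SKO and 0% to 5.88% in TKO at Nav1, and 11.8% to 13.3% in SKO and 7.14% to 15.4% in TKO at Nav3. With so few intervals per gene, 1 interval moves the share of Nav1 or Nav3 by several points. The 95% intervals of the 3 genes overlap, so an order between them is not established by these counts. No paired analysis was possible because the replicates were pooled before peaks were called, and for the same reason no replicate could be left out.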
